A study of Mus musculus with 24 samples.

Results

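The change over time in the response of mpkCCD cells to dDAVP was measured as 1 contrast per gene. mpkCCD cells are a mouse kidney line that stands for the cortical collecting duct (strain C57BL/6, wild type, passages 10 to 11), and dDAVP is a synthetic vasopressin that acts on the V2 receptor. Cells had grown on permeable filters for 6 days in complete medium and had then been kept for 24 h in minimal medium. They received dDAVP or vehicle from the basolateral side for 3, 6, 12 or 24 h. Each of these 8 groups (vehicle 3 h, dDAVP 3 h, and so on) held 3 RNA-seq libraries, and all 24 libraries of the series entered the contrast. The early effect of a gene is the mean of its dDAVP minus vehicle log2 differences at 3 and 6 h, the late effect is the mean of those at 12 and 24 h, and the late minus early difference is the quantity tested. A vehicle group of its own stood at every time. Of 54432 genes in the count table, 29743 could be tested and 12747 had a mean of at least 5 CPM (counts scaled to a common library size) in some group. These 12747 genes are described, and the few named genes below that level (Scnn1b, Nr4a3 and Rhbg) are given as such.

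Vasopressin binds the V2 receptor on the basolateral side of principal cells, which couples through Gs to adenylyl cyclase. The cAMP formed activates protein kinase A, and CREB-family factors then act at cAMP response elements of target genes, while the water channel Aqp2 is made and moved to the apical membrane. Transcription driven by cAMP is known for a fast first wave that declines as phosphodiesterases, repressor forms of Crem and salt-inducible kinases act back on the pathway, and for slower changes that build up.

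A gene was called at an adjusted p under 0.05 (edgeR quasi-likelihood test, Benjamini-Hochberg adjustment over all 29743 genes). A called gene was said to reverse where its early and late effects had opposite signs, each with an unadjusted p under 0.05. The other called genes fade where the late effect is the smaller in size and grow where it is the larger. Sizes are compared whatever the signs, and rise or fall is named by the sign of the larger effect. A set of 3 models was compared, because libraries differed in the share of their counts that fell on odorant-type receptor genes (olfactory Olfr and vomeronasal Vmn). The first had no covariate. The second had the log2 receptor share of each library, and the third also had each library's slope of expression on GC content. This GC slope is the change in log2 CPM, relative to the mean of all libraries, per 10 points of GC in the first 200 bases of the transcript. The third model was chosen after the data were seen, from 5 sets of covariates that included a GC slope.

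Without a covariate 439 genes were called (3.44% of the 12747), of which 435 were lower late (3.41%) and 4 higher (0.0314%). With the receptor share 299 were called (2.35%), 283 lower (2.22%) and 16 higher (0.126%), and 277 genes (2.17%) were called in both models. With the share and the GC slope 17 were called (0.133%), 15 lower (0.118%) and 2 higher (0.0157%), and 16 genes (0.126%) were called in all 3 models. The genes below are ordered by how many models called them. Over all 12747 genes the median difference was -0.19 without a covariate, -0.02 with the receptor share and -0.0031 with the share and GC slope.

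The 5 sets that included a GC slope gave between 9 and 158 calls. Receptor share with the slope over the first 200 bases gave 17, the slope over the first 200 bases alone 158, the slope over the whole transcript alone 9, both slopes 16, and the share with both slopes 21. Across the 24 libraries the receptor share and the first slope had a correlation of -0.99, as a description only, since both are computed from the same counts. Only 6 genes were called without a covariate, with the receptor share and in all 5 of these sets: Ramp3, Vwa2, Soat1, Tecpr1, Dop1b and C3.

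Before the values, the promoters of 3 early-rising genes are shown, because cAMP response elements are where CREB-family factors bind. These 3 were picked because they hold such letters. Of the named genes called in all 3 models, Ramp3, Vwa2, Cyp1b1, Smpd2, Prom1 and C3 held none of the 3 motifs searched, and Cotl1 and Crabp2 had no matched promoter. Sequences run from 250 bases before to 50 after the annotated start, in the direction of the gene (RefSeq, build GRCm38.p6), and capitals mark the site TGACGCA for Soat1 and Tecpr1 and the core site TGACG for Nr4a2, on either strand.
Soat1, chr1:156474279-156474578, minus strand: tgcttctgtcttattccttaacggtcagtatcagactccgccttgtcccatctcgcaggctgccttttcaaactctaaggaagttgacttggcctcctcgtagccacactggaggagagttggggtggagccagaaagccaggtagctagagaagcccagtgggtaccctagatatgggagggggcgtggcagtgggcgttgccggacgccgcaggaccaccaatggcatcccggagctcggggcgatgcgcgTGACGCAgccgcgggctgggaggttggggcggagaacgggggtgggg
Tecpr1, chr5:144223566-144223865, minus strand: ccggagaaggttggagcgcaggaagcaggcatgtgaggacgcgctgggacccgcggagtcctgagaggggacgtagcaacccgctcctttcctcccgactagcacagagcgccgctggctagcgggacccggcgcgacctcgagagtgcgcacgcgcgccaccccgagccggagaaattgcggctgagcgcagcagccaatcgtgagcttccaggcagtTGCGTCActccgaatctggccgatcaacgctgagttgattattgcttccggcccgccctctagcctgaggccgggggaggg
Nr4a2, chr2:57123954-57124253, minus strand: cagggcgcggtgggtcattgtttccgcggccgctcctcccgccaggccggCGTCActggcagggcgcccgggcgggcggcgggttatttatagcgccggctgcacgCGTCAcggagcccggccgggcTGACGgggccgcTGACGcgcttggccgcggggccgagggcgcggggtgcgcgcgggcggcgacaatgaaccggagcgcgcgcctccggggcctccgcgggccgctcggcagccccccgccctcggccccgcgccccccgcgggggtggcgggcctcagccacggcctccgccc
Soat1 and Tecpr1 held 1 TGACGCA each, which also contains the core site, and Nr4a2 held 4 core sites. A gene was counted where any of its promoters held the motif. The full element TGACGTCA was found in 2.03% of all 27025 genes of the promoter table and in 3.67% of the 9222 matched genes of at least 5 CPM. It was found in 2 of 61 matched genes that faded in both models (3.28%), in 10 of 159 that reversed (6.29%) and in 0 of 13 called in all 3 models. TGACGCA was found in 4.38% of the matched genes of at least 5 CPM, in 6 of 61 fading genes, in 8 of 159 reversing genes (5.03%) and in 2 of 13 genes called in all 3 models. The core site was found in 35.7%, 39.3%, 44.7% and 38.5% of these same 4 sets. The median GC content of their promoters was 60.7%, 65.3%, 69.0% and 62.0% in the same order. These counts describe letters in a window and were not tested.

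Ramp3, an accessory protein that sets the ligand specificity of calcitonin-family receptors, had the largest difference of the 16 genes called in all 3 models (ENSMUSG00000041046, GRCm38 chromosome 11, 6658521 to 6677475). Its CPM in the dDAVP libraries was 6.81, 8 and 7.45 at 3 h and 7.58, 7.66 and 8.43 at 6 h, then 1.29, 1.33 and 1.63 at 12 h and 1.43, 2.48 and 1.49 at 24 h. In vehicle the 12 libraries lay between 0.371 and 1.17 CPM. The dDAVP libraries were above the vehicle libraries of their own time at all 4 times, but the 2 late groups came close to vehicle. The early effect was log2 3.60, the late effect 1.10, and the difference -2.50 ± 0.31 (SE, adjusted p = 0.000251). With the receptor share the difference was -2.19 (adjusted p = 0.000117), and with the share and GC slope -2.09 (adjusted p = 0.0202).

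**Figure D1:**
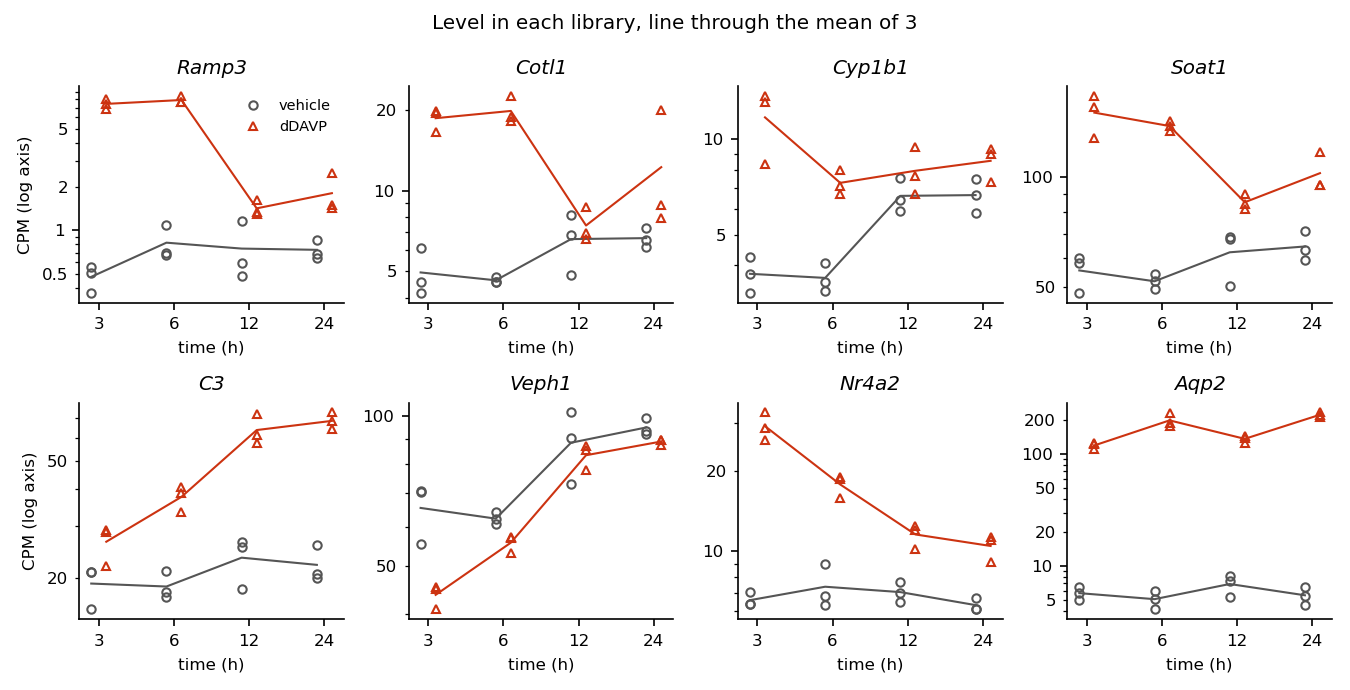
CPM on a log axis against time for 8 genes, circles for vehicle and triangles for dDAVP libraries, with a line through the mean of the 3 libraries of each group. The gap between dDAVP and vehicle narrowed by 12 h for Ramp3, Cotl1, Cyp1b1, Soat1 and Nr4a2, with vehicle rising for Cyp1b1, and widened for C3. With dDAVP, Veph1 started below vehicle, and Aqp2 stayed far above it at all 4 times.

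Cotl1, an actin-binding protein (chromosome 8, 119809222 to 119840544), was at 16.6, 19.8 and 19.4 CPM with dDAVP at 3 h and at 18.1, 22.5 and 18.8 at 6 h, against 4.17 to 6.13 in the 6 vehicle libraries of those times. At 12 h it was at 8.67, 6.63 and 6.95 with dDAVP and at 4.87, 8.11 and 6.82 with vehicle, and these groups overlapped. At 24 h dDAVP replicate 2 alone was high (19.9 CPM, the others 7.94 and 8.82). The difference was -1.48 ± 0.25 (adjusted p = 0.00308), -1.19 with the receptor share and -1.54 with the share and GC slope (adjusted p = 0.0091 and 0.0365).

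The retinoid and xenobiotic genes Crabp2 and Cyp1b1 also rose early and less late. Crabp2, which carries retinoic acid in the cell (chromosome 3, 87948666 to 87953376), was at 66.6, 72.1 and 73.8 CPM with dDAVP at 3 h against 20.3, 26.1 and 28.5 with vehicle, and at 77.5, 74.2 and 79.1 against 23.7, 25 and 26.5 at 6 h. At 12 h it was at 48.8, 43.2 and 46.3 against 21.9, 32.5 and 28.2, and at 24 h at 44.0, 61.8 and 52.2 against 35.5, 34.1 and 31.3. No groups overlapped at any time, and the early effect of 1.56 became a late effect of 0.70 (difference -0.87 ± 0.13, adjusted p = 0.00225; -0.67 and -0.76 in the other 2 models, adjusted p = 0.00149 and 0.0202).

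Cyp1b1, a cytochrome P450 that oxidises steroids, retinoids and xenobiotics (chromosome 17, 79701537 to 79715061), rose from 4.25, 3.27 and 3.75 CPM with vehicle to 8.39, 13.1 and 13.7 with dDAVP at 3 h. At 24 h it was at 6.66, 5.86 and 7.46 with vehicle and 7.32, 9.32 and 9.01 with dDAVP, and the groups overlapped. Vehicle itself rose from the early to the late times (log2 0.84, adjusted p = 0.000421), while the change within dDAVP was -0.16. The difference was -1.0 ± 0.19 (adjusted p = 0.0057), -0.91 with the receptor share (adjusted p = 0.0122) and -1.21 with the share and GC slope (adjusted p = 0.0408).

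Soat1, the enzyme that esterifies cholesterol in the endoplasmic reticulum (chromosome 1, 156424525 to 156474331), was at 127, 155 and 166 CPM with dDAVP at 3 h against 48.2, 58.1 and 60.2, and at 142, 137 and 133 against 49.5, 54.2 and 51.8 at 6 h. At 12 h it was at 90.0, 81.5 and 84.2 against 50.3, 68.6 and 67.7, and at 24 h at 95.2, 117 and 95.1 against 71.0, 59.4 and 63.2. The groups did not overlap at any time, and log2 1.42 early became 0.56 late (difference -0.86 ± 0.12, adjusted p = 0.00164; -0.69 and -0.75 in the other 2 models, adjusted p = 0.000577 and 0.0136).

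Smpd2, a neutral sphingomyelinase, had an early effect of 0.81 and a late effect of 0.05 (difference -0.76, adjusted p = 0.00308), and its groups overlapped at 12 and 24 h. Gdpd1, a glycerophosphodiester phosphodiesterase, went from 1.08 to 0.41 (difference -0.67, adjusted p = 0.00885). Its call was lost without any 1 of 6 libraries when no covariate was used: dDAVP 3 h replicate 3, dDAVP 6 h replicate 2, dDAVP 12 h replicates 1 and 2, vehicle 24 h replicate 2 and dDAVP 24 h replicate 3 (largest adjusted p = 0.0721).

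Tecpr1, which takes part in autophagosome maturation (chromosome 5, 144194442 to 144223615), had the smallest adjusted p of the named genes in all 3 models. On log2 TPM with 1 or 0.1 added it was not called (-0.10 and -0.11, adjusted p = 0.75 and 0.756 by limma). Its CPM with dDAVP was 58.1, 62.5 and 63.0 at 3 h and 57.2, 63.1 and 59.9 at 6 h, then 41.8, 36.7 and 34.5 at 12 h and 43.4, 42.1 and 40.6 at 24 h. Vehicle lay between 28.1 and 36.4 CPM in its 12 libraries. The groups did not overlap at any time, and the rise of log2 1.04 early was 0.26 late (difference -0.77 ± 0.09, adjusted p = 0.000187; -0.77 and -0.69 in the other 2 models, adjusted p = 1.25e-05 and 0.00623).

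Vwa2, a secreted protein with von Willebrand factor A domains, went from an early effect of 1.0 to a late effect of -0.07. It was at 43.7, 50.5 and 48.6 CPM with dDAVP at 3 h against 17.7, 24.6 and 27.4, and at 23.8, 23.5 and 24.3 against 19.5, 30.3 and 25.2 at 12 h. The groups overlapped at both late times (difference -1.07, adjusted p = 0.000512; -0.85 and -0.66 in the other 2 models, adjusted p = 0.000117 and 0.0251).

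Dop1b went from 0.86 to 0.14, Prom1, the membrane-protrusion protein prominin 1, from 1.11 to 0.40, and Chp1, a calcium-binding protein that supports sodium-proton exchangers, from 1.16 to 0.46. Their differences were -0.72, -0.71 and -0.70 (adjusted p = 0.000636, 0.00308 and 0.00308). On log2 TPM with 1 or 0.1 added, Dop1b had a difference of 0.06 or 0.07 and was not called.

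C3, the central protein of the complement cascade, was the gene called in all 3 models whose rise grew (chromosome 17, 57203970 to 57228136). With dDAVP it was at 22.0, 29.1 and 28.6 CPM at 3 h and reached 40.8, 33.5 and 39.0 by 6 h. It was at 57.5, 61.3 and 72.4 CPM by 12 h and 68.2, 73.2 and 64.1 by 24 h. Vehicle stayed between 15.6 and 26.5 CPM. The groups did not overlap at any time, and the effect was 0.47, 1.02, 1.45 and 1.63 at the 4 times in turn. The difference was 0.79 ± 0.15 (adjusted p = 0.00533), 0.93 with the receptor share (adjusted p = 0.00136) and 1.01 with the share and GC slope (adjusted p = 0.0202). Without a covariate C3 lost the call with RLE size factors, late minus 6 h, 12 h minus early and 24 h minus early (0.74, 0.52, 0.70 and 0.88, adjusted p = 0.082, 0.159, 0.0855 and 0.0572 by edgeR).

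These genes were picked by their calls with the receptor share and with the share and GC slope. Both models are among the 19 other settings without leaving out single libraries, so those calls were fixed in advance. All settings drew on the same libraries. Over the 19, Ramp3 and Vwa2 were called in the same direction in 19. Crabp2, Soat1, Tecpr1, Smpd2 and Dop1b were called in 17, Cotl1 and C3 in 15, Prom1 and Chp1 in 14, Cyp1b1 in 13 and Gdpd1 in 9.

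Veph1, a membrane-associated protein with a pleckstrin homology domain, was called in both models with covariates. At 3 h it was at 41.0, 44.9 and 45.5 CPM with dDAVP against 55.3, 70.3 and 70.7 with vehicle, and at 24 h at 89.4, 87.7 and 89.6 against 99.2, 92.1 and 93.3. The groups did not overlap at 3, 6 and 24 h and overlapped at 12 h. The early fall of -0.37 was -0.09 late without a covariate (difference 0.28, adjusted p = 0.231), and the difference was 0.44 with the receptor share and 0.49 with the share and GC slope (adjusted p = 0.00447 and 0.0445).

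The third model called few genes and rested on single libraries. When each library was left out in turn it called between 0 and 17 genes (median 9), and 0 without vehicle 3 h replicate 3, without vehicle 12 h replicate 2 or without dDAVP 24 h replicate 1. Of these 24 fits, Tecpr1 and C3 were called in 20, Ramp3 in 13, Soat1 and Veph1 in 11, Crabp2 in 8, Cotl1 and Prom1 in 7, Vwa2 and Smpd2 in 5, Cyp1b1 in 4, and Dop1b, Chp1 and Gdpd1 in 1.

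**Figure D2:**
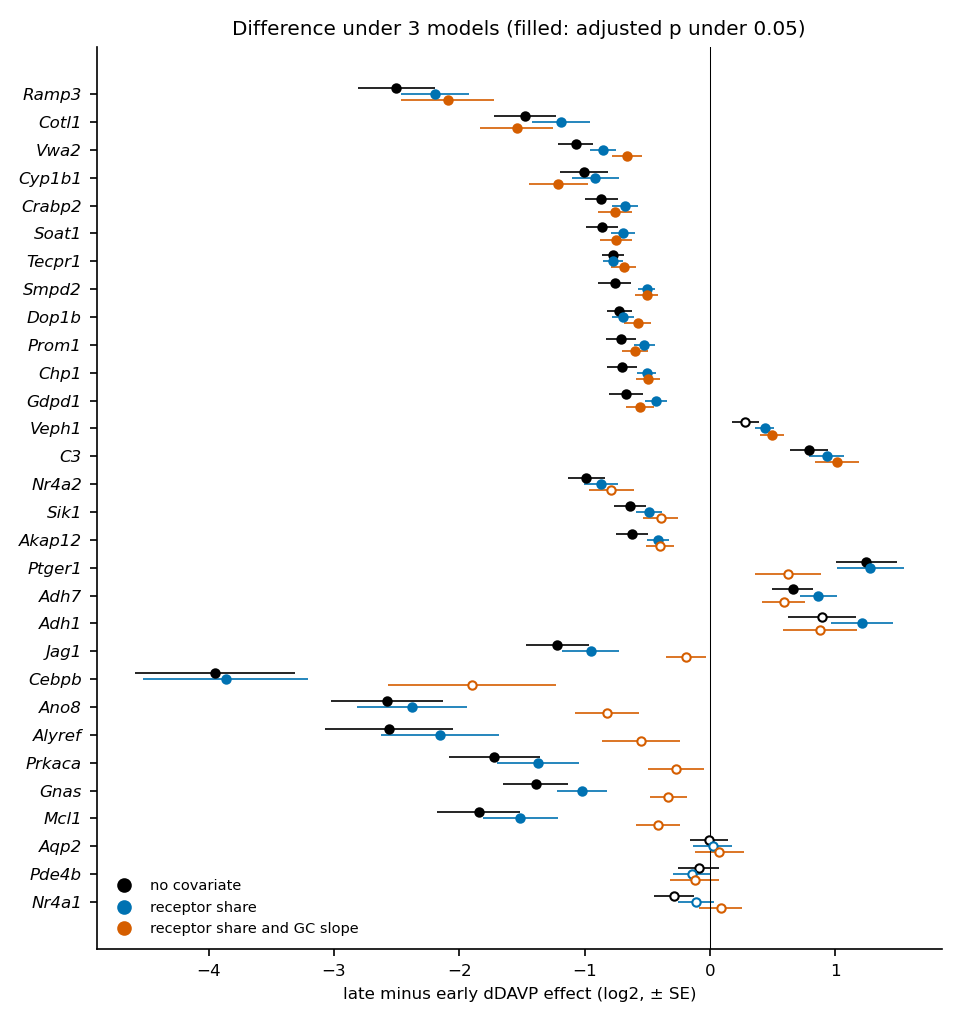
Late minus early dDAVP effect (log2, bars are SE) of 30 genes under 3 models, black for no covariate, blue for the receptor share, orange for the share and GC slope. Filled points have an adjusted p under 0.05. Ramp3 to Gdpd1 and C3 are filled in all 3 models, whereas Cebpb to Mcl1 lie nearer 0 and are open with the share and GC slope.

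In all, 81 genes faded in both models without the GC slope, 80 of them early rises and 1 an early fall, and 15 of the 81 were also called with it. With the receptor share, 50 of these 81 genes also faded, while 29 reversed and 2 grew. Nr4a2, an orphan nuclear receptor and known cAMP target, was at 26.0, 33.0 and 28.9 CPM after 3 h of dDAVP and 15.8, 19.0 and 18.5 after 6 h. After 12 h it was at 12.0, 10.2 and 12.5, and after 24 h at 11.3, 11.0 and 9.10, against 6.09 to 8.98 in the 12 vehicle libraries. It stayed above vehicle with no overlap at every time while its effect fell from 2.15 at 3 h to 0.73 at 24 h. The late minus early difference was -0.99 ± 0.15 (adjusted p = 0.00191), -0.87 with the receptor share (adjusted p = 0.00149) and -0.79, not called, with the share and GC slope (adjusted p = 0.148). Sik1, a salt-inducible kinase, went from 1.07 to 0.43 (difference -0.64, adjusted p = 0.00844), and Akap12, a protein kinase A anchor, from 1.39 to 0.77 (-0.62, adjusted p = 0.00894). Of the 24 fits without a covariate that left out 1 library, Nr4a2 was called in 24, Sik1 in 19 (largest adjusted p = 0.0744) and Akap12 in 14 (0.078). Leaving out dDAVP 6 h replicate 2 or vehicle 24 h replicate 2 ended the call of both Sik1 and Akap12. Over the 19 other settings without leaving out single libraries, Nr4a2 was called in 12, and Sik1 and Akap12 in 7 each.

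Other fading rises called in these same 2 models were Cbr3, a carbonyl reductase (difference -1.13), Klf2, a Krüppel-like transcription factor (-1.41), Tspan33, a tetraspanin (-1.93), Lypd3, a surface protein of epithelia (-0.67), and Tmprss4, a transmembrane serine protease (-0.90). The rule also named Cdc34 (-1.41), Ppp1r14b (-1.36), Abhd17c (-1.23), Shb (-1.16), Zfpm1 (-1.08) and Phc2 (-1.06). None of these 11 was called with the share and GC slope. Shb was called without a covariate in 9 of the 19 other settings without leaving out single libraries. Of the 24 fits that left out 1, it lost the call only without vehicle 24 h replicate 2. Cdc34, Zfpm1, Phc2 and Tmprss4 lost it without that library and without others, and were called in 20, 18, 16 and 16 of the 24 fits that left out 1. Replicates of Tspan33 differed widely: vehicle at 3 h was at 29.2, 69.4 and 80.4 CPM, and dDAVP at 24 h at 115, 79.7 and 38.2.

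Ptger1, a receptor for prostaglandin E2, was the fall that faded. It was at 6.28, 5.78 and 8.07 CPM with dDAVP at 3 h against 19.6, 22.3 and 16.7 with vehicle, and at 8.22, 5.77 and 6.39 against 15.3, 24.2 and 21.6 at 6 h. At 24 h it was at 19.4, 30.6 and 39.9 against 31.9, 27.5 and 34.6, and the groups overlapped there and at 12 h. The effect went from -1.56 to -0.32 (difference 1.25 ± 0.24, adjusted p = 0.00602; with the share and GC slope 0.63, adjusted p = 0.984).

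The 4 genes classed as growing in both models without the GC slope were C3, Adh7, P3h2 and Jag1. Adh7, an alcohol dehydrogenase that oxidises retinol, had an early effect of 0.09 and a late effect of 0.75, with dDAVP at 22.4, 25.4 and 24.9 CPM against 11.5, 17.5 and 15.8 at 12 h and at 23.1, 34.3 and 37.7 against 18.9, 17.7 and 18.0 at 24 h. These late groups did not overlap. Its difference was 0.66 ± 0.17 (adjusted p = 0.0401), and it was called in 7 of 24 fits that left out a library (largest adjusted p = 0.114). P3h2, a collagen prolyl hydroxylase, and Jag1, a Notch ligand, were lower late (differences -1.67 and -1.22, adjusted p = 0.00743 and 0.00894), and both were near 0 with the share and GC slope (-0.29 and -0.19). Without a covariate P3h2 and Jag1 were above vehicle early and further below it late, so their class rests on size and no early response grew. They were not classed as reversing because the early and late effects did not each have an unadjusted p under 0.05.

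**Figure D3:**
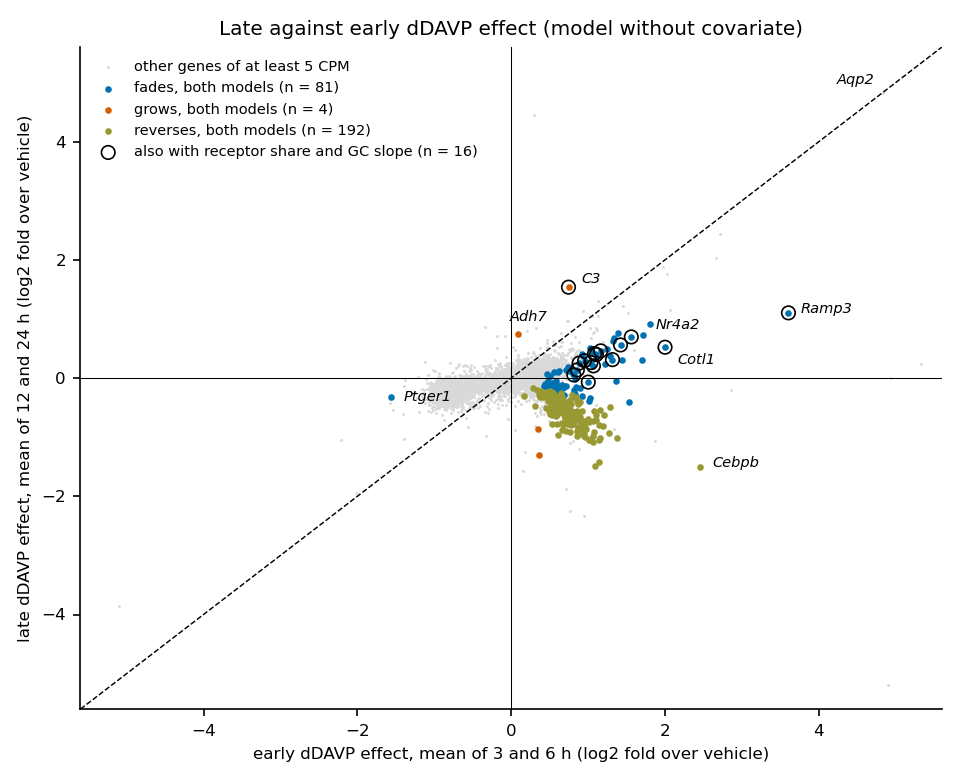
Late effect (mean of 12 and 24 h) against early effect (mean of 3 and 6 h), both log2 fold of dDAVP over vehicle without a covariate, for genes of at least 5 CPM; the dashed line marks equal effects. The 80 fading rises lie below the line, the 192 reversing genes have a late effect below 0, and rings mark the 16 genes called in all 3 models.

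Of the 277 genes called in both models without the GC slope, 192 reversed without a covariate, and each was higher than vehicle early and lower late. With the receptor share 99 of these 192 reversed as well, and the other 93 were classed as growing falls, a name that gives the sign of the larger, late effect only. In that model the 192 genes had a median effect of 0.35 early and -0.59 late. The rule named 24 of them by the size of their difference and others as members of lists, and none was called with the share and GC slope. Cebpb, the transcription factor C/EBP beta (chromosome 2, 167688915 to 167690418), had the largest difference, -3.95 ± 0.64 (adjusted p = 0.00308). Its replicates differed widely. At 3 h it was at 2.19, 5.58 and 21.3 CPM with vehicle and 48.2, 45.1 and 16.4 with dDAVP, and at 6 h at 4.62, 3.35 and 2.73 against 8.05, 34.5 and 42. At 12 h it was at 19.2, 14.8 and 3.09 with vehicle against 3.58, 2.88 and 3.35 with dDAVP, and at 24 h at 9.68, 11.4 and 11.7 against 7.8, 4.6 and 3.17. The groups overlapped at 3 and 12 h, and with the share and GC slope the difference was -1.90 (adjusted p = 0.908).

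Gnas, which encodes the stimulatory G protein of the V2 receptor, went from 0.75 early to -0.64 late (difference -1.39, adjusted p = 0.0052), Prkaca, a catalytic subunit of protein kinase A, from 0.86 to -0.86 (-1.72, adjusted p = 0.0098), and Gnb1, a G protein beta subunit, from 0.95 to -0.93 (-1.88). Prkaca was at 29.0, 74.3 and 102 CPM in vehicle at 3 h and at 107, 61.7 and 29.2 with dDAVP at 24 h, and its groups overlapped at both times. With the receptor share Gnas, Prkaca and Gnb1 were classed as growing falls, by the larger late effect and whatever the sign of the early one. Their differences with the share and GC slope were -0.33, -0.27 and -0.46, none called.

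Other reversing genes that the rule named, with their differences without a covariate, were the RNA-binding Alyref (-2.56) and Hnrnpd (-2.16), the glycosylation enzymes Mogs (-2.04) and Mgat4b (-1.89), the cargo receptor Tmed7 (-1.95), the vesicle regulator Rab12 (-2.13), the survival factor Mcl1 (-1.85), the neddylation enzyme Ube2m (-1.83) and the deubiquitinase Otulin (-1.78). The rest were Ano8 (-2.58), Csnk1g2 (-2.40), Mtch1 (-2.07), Ankrd13a (-2.06), Crebzf (-2.01), Btbd2 (-1.99), Slain1 (-1.93), Dexi (-1.84), Akirin2 (-1.84), Lrrc47 (-1.75), Dapk3 (-1.68), Cables2 (-1.61) and Ppp1r13b (-1.58). Without a covariate, Cebpb, Gnb1 and every gene of this list lost the call for late minus 3 h and for 24 h minus early. So did P3h2, Jag1 and the fading Cotl1, Klf2, Tspan33, Cdc34, Ppp1r14b, Abhd17c, Shb, Zfpm1, Phc2, Sik1 and Akap12. The fading Ramp3, Vwa2 and Nr4a2 kept it in both. The 439 calls among genes of at least 5 CPM became 14 and 20 in these comparisons. Otulin and Dapk3 also lost the call without dDAVP 6 h replicate 2 or vehicle 24 h replicate 2 (largest adjusted p = 0.0508).

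Several library measures moved with these genes. The receptor share was between 0.135% and 0.901% of the counts, and its log2 contrast was -1.10 early and -0.22 late. The GC slope was 0.15 higher with dDAVP than with vehicle early and 0.01 higher late. The mean level of the 192 reversing genes, as log2 CPM relative to the mean of all libraries, was -0.90, -0.11 and 0.35 in vehicle at 3 h, which is wider than the gap of 0.77 between dDAVP and vehicle early. It was 0.17, -0.20 and -0.65 with dDAVP at 24 h. Across the 24 libraries this level had a correlation of -0.51 with the log2 receptor share and of 0.61 with the GC slope, as a description.

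The first 200 bases of the transcripts had a median GC content of 76.5% in the 192 reversing genes, 70.0% in the 81 fading genes, 57.5% in the 16 genes called in all 3 models and 61.0% in all 12747 genes. With the GC slope of the first 200 bases as the only covariate, 95 of the 192 reversing genes were called, and 2 of them in any of the other 4 sets. The part of GC content and receptor share in the reversals was not tested beyond these models.

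**Figure D4:**
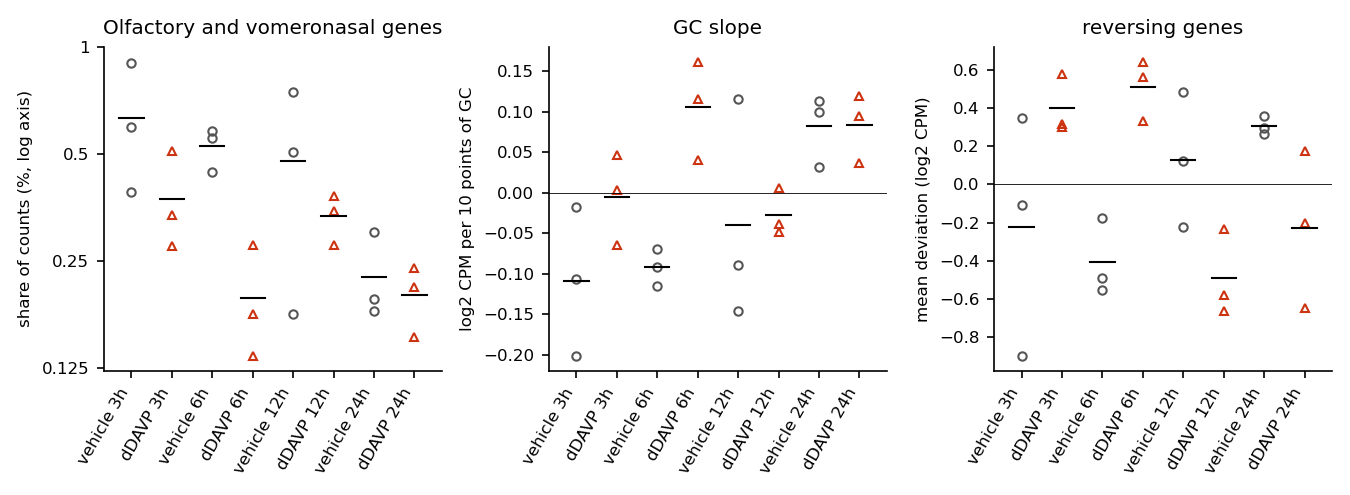
Share of counts in olfactory and vomeronasal genes (%, log axis), GC slope (log2 CPM per 10 points of GC) and mean deviation of the 192 reversing genes (log2 CPM) in each of the 24 libraries by group, circles for vehicle and triangles for dDAVP; bars are group means. Vehicle at 3 and 12 h spread widely in all 3 measures, and dDAVP at 24 h in the third.

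Both arms moved in the called genes, which were chosen on the contrast of the arms. Of the 277 genes called in both models without the GC slope, 206 fell and 3 rose from the early to the late times within dDAVP, and 151 rose and 0 fell within vehicle. Of all 12747 genes, 6.58% were called within dDAVP in either direction (521 fell and 318 rose). Within vehicle 33.7% were called (3481 rose and 816 fell). Of the 16 genes called in all 3 models, 14 fell and 1 rose within dDAVP and 9 rose within vehicle.

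Counts of groups that did not overlap have to be read against all genes. At 3, 6, 12 and 24 h dDAVP and vehicle libraries did not overlap in 10%, 81.1%, 5.32% and 11.8% of the 12747 genes. The 192 reversing genes did not overlap in 30, 190, 79 and 124 cases, and the 16 genes called in all 3 models in 16, 16, 10 and 11.

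Many of the best known targets were not called as changing over time. Aqp2 (chromosome 15, 99579055 to 99584547) was at 110, 126 and 122 CPM with dDAVP at 3 h and at 222, 214 and 235 at 24 h, against 4.13 to 8.12 in the 12 vehicle libraries. Its early and late effects were both 4.83, and the difference was -0.01 ± 0.15 (adjusted p = 0.982). Pde4b, a cAMP phosphodiesterase, had 1.98 early and 1.88 late, Baiap2l2, a membrane-curving protein, 2.03 and 1.76, Cited1, a transcriptional coactivator, 2.71 and 2.44, and Aqp5, another water channel, 1.45 and 1.22. Nr4a1 had 1.07 and 0.78, Muc4, a membrane mucin, 1.52 and 1.10, Sult1d1, a sulfotransferase, 1.13 and 1.30, Tgm2, a transglutaminase, 0.73 and 0.96, and Fos 0.47 and 0.36. A missed threshold does not show that the 2 effects were equal: the SE of the difference was 0.33 for Cited1 and 0.13 for Aqp5.

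Crem, which encodes cAMP-responsive activators and repressors, went from 1.14 to 0.48 and missed the threshold (difference -0.66, adjusted p = 0.0655). Nr4a3, below 5 CPM, had 0.71 and 0.46. The sodium channel subunits Scnn1a, Scnn1b and Scnn1g had differences of -0.23, 0.53 and 0.39 (adjusted p = 0.384, 0.336 and 0.274), with Scnn1b at no more than 1.72 CPM in any group mean. Just over the threshold lay Rcc2, Tent4b, Drap1, Nfatc2 and Znrf1, with differences of -0.60, -0.63, -0.60, -0.40 and -0.58 (adjusted p = 0.0507 to 0.0524).

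Some genes passed in 1 model only. With the receptor share alone, Adh1, a retinol-oxidising alcohol dehydrogenase, grew (difference 1.21, adjusted p = 0.0124; 0.89 and 0.117 without it), as did Krt23 (0.74) and Inmt (0.44). The fall of the Ras-like gene Rasl11a faded (0.68, adjusted p = 0.0121), as did those of Scel (0.48) and Zfp182 (0.53) and the rises of Kctd6 (-1.0) and Tmcc2 (-0.72). Acss2 (0.55), Zfp433 (0.49), Slc25a42 (-0.41) and Ltbp1 (-0.40) reversed there. All 12 of these genes lost the call without vehicle 12 h replicate 1. Of the 24 fits that left out 1 library, Kctd6 was called in 4, Slc25a42 in 6, Tmcc2 in 10, Ltbp1 in 11, Krt23 in 12, Acss2 and Zfp182 in 16, Rasl11a, Inmt and Zfp433 in 22, and Adh1 and Scel in 23.

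Without a covariate only, Arg2, the mitochondrial arginase, faded from 2.06 to 1.15 (difference -0.90, adjusted p = 0.026) and B3gnt7, a glycosyltransferase, from 2.67 to 2.04 (-0.63, adjusted p = 0.0346), although both stayed above vehicle at 24 h. Sap30l (-1.27), Rnf126 (-1.09) and Smim19 (-0.97) faded, and Oaf (-1.35), Arl8a (-1.35), Rac1 (-1.33) and Siah2 (-1.30) reversed. Of the 24 fits that left out 1 library, Arg2 was called in 5, B3gnt7 in 4, Smim19 in 11, Sap30l, Oaf and Rac1 in 15, Rnf126 in 16, and Arl8a and Siah2 in 17, and each lost the call without dDAVP 6 h replicate 2.

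The lists of related genes held few called members. Of 33 CREB-associated and immediate early genes tested, 5 were lower late without a covariate (Cebpb, Nr4a2, Sik1, Jund and Dusp1) and 4 with the receptor share, and none was higher. With the share and GC slope 0 of them were called. Of all 29743 genes, 1.57% were called without a covariate (1.51% lower, 0.0605% higher), 1.08% with the receptor share (1.01% lower, 0.0706% higher) and 0.0572% with the share and GC slope (0.0504% lower, 0.00672% higher). The 33 listed genes had a median difference of -0.32 without a covariate and -0.11 with the receptor share, beside 0.10 and -0.03 over all genes tested. Of the 33, 28 were at 5 CPM or more, and genes of that level had a median of -0.19 and -0.02. Of all genes of that level, 3.41% were lower late without a covariate and 2.22% with the receptor share. Of 40 genes of cAMP turnover and protein kinase A, 5 were lower without a covariate (Prkaca, Gnas, Akap12, Prkar2a and Adcy6) and 3 with the receptor share, and the median was -0.14 and -0.06. With the share and GC slope 0 of the 40 were called. Jund and Prkar2a had differences of -0.95 and -0.80 (adjusted p = 0.0105 and 0.0257) and were called in 17 and 8 of the 24 fits that left out 1 library. Dusp1, a phosphatase of MAP kinases, and Adcy6, an adenylyl cyclase, were outside the naming rule and are named after their values were seen (-0.73 and -0.44, adjusted p = 0.0128 and 0.0484).

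Of 31 retinoid, steroid and xenobiotic enzymes tested, 4 were lower late without a covariate (Crabp2, Cbr3, Cyp1b1 and Akr1c19, the last by -0.59) and 1 higher (Adh7), and with the receptor share 3 were lower and 2 higher (Adh7 and Adh1). Crabp2 and Cyp1b1 were the 2 called with the share and GC slope as well. Among 27 principal cell genes, Hsd11b2, which inactivates glucocorticoids, was lower late without a covariate (-0.76, adjusted p = 0.0173; called in 13 of the 24 fits that left out 1 library) and Avpr2, the V2 receptor itself, higher with the receptor share (0.37, adjusted p = 0.0264).

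C3 was higher and Lypd3 lower among 23 genes of complement, mucins and epithelial defence, Tmprss4 was lower among 14 proteases and inhibitors, and E2f1 lower among 26 cell cycle genes (-1.41, adjusted p = 0.00743). Of 16 intercalated cell genes, Rhbg, an ammonia transporter below 5 CPM, was lower with the receptor share (-1.16, adjusted p = 0.0244). No member was called in the lists for cholesterol and fatty acid synthesis, the circadian clock, the ER stress and amino acid response, the interferon and NF-kB response, glycolysis and hypoxia, the osmotic response, or other kidney and stromal cells, by edgeR without a covariate or with the receptor share.

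Markers matched the labelled cell line in part. All 11 principal cell markers and all 5 epithelial markers had a median of at least 1 CPM, whereas 3 of 7 intercalated cell markers did. Markers of other cells reached that level in 8 of 13 cases, and summed to between 66.7 and 90.7 CPM per library, most of it Lrp2. Without a covariate, the 20 tested genes of the list for other kidney and stromal cells had a median effect of -0.76 early and -0.12 late (difference 0.48, and -0.13 with the receptor share). The 16 tested intercalated cell genes had -0.43 early and -0.14 late (difference 0.13, and 0.05 with the receptor share). Over all 29743 genes tested the medians were -0.33 early and -0.05 late (difference 0.10, and -0.03 with the receptor share). Only 4 of the 20 and 3 of the 16 listed genes were at 5 CPM or more. Whether other cell types had a part in the differences was not tested.

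Single libraries and scaling moved the counts of called genes. Leaving out each library in turn gave 168 to 1286 calls without a covariate and 31 to 358 with the receptor share, and 1286 and 31 both came without vehicle 12 h replicate 1. With a new fit and scaling on genes of at least 5 CPM, 390 genes were lower late and 80 higher without a covariate, and 283 and 102 with the receptor share, and the median difference without a covariate moved from -0.19 to 0.02.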

How the data were processed

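RNA of 24 mpkCCD libraries was measured after SMART-Seq HT cDNA synthesis and Nextera library preparation, per the labels' protocols. The authors deposited estimated counts per Ensembl gene, not normalized, and a TPM table, used only as an alternative. The submitters' processing notes name Salmon and the build GRCm38.p6. No source used here gives the settings. Libraries held 17.2 to 27.6 M (mega) estimated counts. Rounded counts were fitted in R 4.3.3 with edgeR 4.0.16 and limma 3.58.1: TMM factors 0.814 to 1.33, filterByExpr, 1 mean per group, quasi-likelihood F test, Benjamini-Hochberg adjustment at 0.05 over 29743 genes. CPM use TMM library sizes, and counts carry no length correction, so they compare libraries within a gene. SE values come from the F statistic.

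The receptor share is the share of counts in 1459 protein-coding genes (1135 olfactory, 324 vomeronasal). Transcript GC came from the longest GENCODE M21 transcript, symbols from the same release (54346 of 54432 genes), promoters from RefSeq. The members, the gene lists and the test with the receptor share were chosen with earlier results of these data known. Models with a GC slope and the GC contents by class were added after seeing the data. Named were, among genes of at least 5 CPM with a symbol that is not a clone name, up to 12 of largest difference per class and direction called in both models, up to 6 and 4 called in 1, a fixed set, up to 4 members of a list with the smallest p, and, added later, those called with the share and GC slope. A gene that the rule names is not reported here.

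Whether replicates came from different cultures is not stated in the labels. The p-values therefore reflect only library-to-library spread, possibly technical. Within groups, pairs of libraries had chi-square values per gene from 2.43 to 34.1, so no library duplicated another. The fits were also run on simulated data in which some genes carried a late-only dDAVP change. No early effect was simulated, so fading and reversing genes were not covered. DESeq2 1.42.0 and limma on log2 TPM were alternatives. Same-numbered replicates did not deviate together (median correlation 0.01, from -0.67 to 0.76 over 84 pairs), so the numbers were not used as pairs. Plots were made in Python 3.11.15 (matplotlib 3.10.9).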

Additional observations from a re-analysis of the deposited data

Results flagged for a closer look

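By the test of the late minus early difference itself, every named gene below passed without a covariate, with the receptor share, or in both models. Many did not pass in all 3 models. Values are late minus early log2 differences. Of the 16 genes called in all 3 models, those with a symbol that is not a clone name were Ramp3 -2.50, Cotl1 -1.48, Vwa2 -1.07, Cyp1b1 -1.0, Crabp2 -0.87, Soat1 -0.86, Tecpr1 -0.77, Smpd2 -0.76, Dop1b -0.72, Prom1 -0.71, Chp1 -0.70, Gdpd1 -0.67 and C3 0.79. Genes that faded without a covariate and were not called with the share and GC slope together were Abhd17c -1.23, Akap12 -0.62, Akr1c19 -0.59, Arg2 -0.90, B3gnt7 -0.63, Cbr3 -1.13, Cdc34 -1.41, Klf2 -1.41, Lypd3 -0.67, Nr4a2 -0.99, Phc2 -1.06, Ppp1r14b -1.36, Ptger1 1.25, Rnf126 -1.09, Sap30l -1.27, Shb -1.16, Sik1 -0.64, Smim19 -0.97, Tmprss4 -0.90, Tspan33 -1.93 and Zfpm1 -1.08. With the GC slope of the first 200 bases as the only covariate, Klf2, Nr4a2, Tspan33, Cbr3, Lypd3 and Ptger1 were called. Akr1c19, Arg2, B3gnt7, Sap30l, Rnf126 and Smim19 among these were not called with the receptor share.

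Genes classed as growing were Adh7 0.66, Jag1 -1.22 and P3h2 -1.67, with Jag1 and P3h2 above vehicle early and further below it late. Genes that reversed were Akirin2 -1.84, Alyref -2.56, Ankrd13a -2.06, Ano8 -2.58, Arl8a -1.35, Btbd2 -1.99, Cables2 -1.61, Cebpb -3.95, Crebzf -2.01, Csnk1g2 -2.40, Dapk3 -1.68, Dexi -1.84, E2f1 -1.41, Gnas -1.39, Gnb1 -1.88, Hnrnpd -2.16, Hsd11b2 -0.76, Jund -0.95, Lrrc47 -1.75, Mcl1 -1.85, Mgat4b -1.89, Mogs -2.04, Mtch1 -2.07, Oaf -1.35, Otulin -1.78, Ppp1r13b -1.58, Prkaca -1.72, Prkar2a -0.80, Rab12 -2.13, Rac1 -1.33, Siah2 -1.30, Slain1 -1.93, Tmed7 -1.95 and Ube2m -1.83, of which Oaf, Arl8a, Rac1, Siah2, Hsd11b2 and Prkar2a were not called with the receptor share. None of the reversing genes was called with the share and GC slope.

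Called with the receptor share and not without it were Acss2 0.55, Adh1 1.21, Avpr2 0.37, Inmt 0.44, Kctd6 -1.0, Krt23 0.74, Ltbp1 -0.40, Rasl11a 0.68, Rhbg -1.16, Scel 0.48, Slc25a42 -0.41, Tmcc2 -0.72, Veph1 0.44, Zfp182 0.53 and Zfp433 0.49. Of these, Veph1 was also called with the share and GC slope.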

How the results depend on the processing

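Counts of called genes of at least 5 CPM moved with most settings, and the cause was not tested. The 439 calls without a covariate became 215 with RLE size factors, 350 with DESeq2, 205 at a threshold of 0.01, 470 (390 lower, 80 higher) with a new fit on genes of at least 5 CPM, 333 without the count filter, and 43 or 87 with limma on log2 TPM plus 1 or 0.1. They became 14 for late minus 3 h, 337 for late minus 6 h, 161 for 12 h minus early, 20 for 24 h minus early, 299 with the receptor share, 630 without the 2 libraries of highest share, 17 with the share and GC slope, 9 with the whole-transcript slope, 158 with the slope of the first 200 bases, 16 with both slopes, and 21 with the share and both slopes. The 299 calls with the receptor share became 113 (96 lower, 17 higher) with RLE, 144 (97 lower, 47 higher) with DESeq2, 385 with the new fit, 70 at 0.01, 85 for late minus 3 h, 11 for late minus 6 h, 159 for 12 h minus early, 39 for 24 h minus early, 63 without the 2 libraries of highest share, and 17 with the GC slope added. Leaving out 1 library gave 168 to 1286 calls without a covariate and 31 to 358 with the receptor share. The replicate block gave 451 and 140 calls; the numbers share only a number, not an origin.

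Of named genes whose difference without a covariate turned direction when 1 setting changed, with all libraries kept or 1 left out, Dop1b alone had been called (0.065 and 0.072 with limma on log2 TPM plus 1 and 0.1). The others had not been called. Aqp2 gave 0.20 (5 CPM filter with new fit), 0.45 (late minus 3 h), 0.51 (24 h minus early), 0.31 (limma on log2(TPM + 1)), 0.34 (limma on log2(TPM + 0.1)), 0.022 (receptor share as covariate), 0.075 (receptor share and GC slope as covariates), 0.067 (whole-transcript GC slope as covariate), 0.036 (first-200 GC slope as covariate), 0.067 (both GC slopes as covariates), 0.082 (receptor share and both GC slopes as covariates). Aqp5 gave 0.14 (limma on log2(TPM + 1)), 0.15 (limma on log2(TPM + 0.1)). Avpr2 gave -0.16 (late minus 6 h). Scnn1a gave 0.15 (limma on log2(TPM + 1)), 0.16 (limma on log2(TPM + 0.1)), 0.086 (receptor share as covariate), 0.19 (receptor share and GC slope as covariates), 0.22 (whole-transcript GC slope as covariate), 0.17 (first-200 GC slope as covariate), 0.13 (both GC slopes as covariates), 0.16 (receptor share and both GC slopes as covariates). Nr4a1 gave 0.13 (late minus 3 h), 0.043 (limma on log2(TPM + 1)), 0.070 (limma on log2(TPM + 0.1)), 0.086 (receptor share and GC slope as covariates), 0.0056 (whole-transcript GC slope as covariate), 0.092 (receptor share and both GC slopes as covariates). Nr4a3 gave 0.31 (late minus 3 h), 0.18 (24 h minus early). Fos gave 0.10 (5 CPM filter with new fit), 0.34 (late minus 3 h), 0.065 (24 h minus early), 0.19 (limma on log2(TPM + 1)), 0.21 (limma on log2(TPM + 0.1)), 0.13 (receptor share as covariate), 0.35 (receptor share and GC slope as covariates), 0.26 (whole-transcript GC slope as covariate), 0.21 (first-200 GC slope as covariate), 0.21 (both GC slopes as covariates), 0.33 (receptor share and both GC slopes as covariates). Pde4b gave 0.11 (5 CPM filter with new fit), 0.032 (12 h minus early), 0.16 (limma on log2(TPM + 1)), 0.31 (limma on log2(TPM + 0.1)). Baiap2l2 gave 0.16 (late minus 3 h), 0.22 (limma on log2(TPM + 1)), 0.20 (limma on log2(TPM + 0.1)), 0.0031 (receptor share and GC slope as covariates), 0.061 (whole-transcript GC slope as covariate), 0.078 (both GC slopes as covariates), 0.050 (receptor share and both GC slopes as covariates). Cited1 gave 0.26 (24 h minus early), 0.14 (limma on log2(TPM + 0.1)). Sult1d1 gave -0.11 (12 h minus early). Tgm2 gave -0.14 (late minus 6 h), -0.016 (12 h minus early). When 1 library was left out of the fit without a covariate, the ranges that crossed 0 were -0.10 to 0.12 for Aqp2, -0.44 to 0.010 for Nr4a3, -0.18 to 0.085 for Fos and -0.15 to 0.036 for Pde4b. With the share and GC slope, leaving out 1 library took the difference of 17 genes that had been called without a covariate across 0, among them Ppp1r14b (-0.78 to 0.32), Phc2 (-0.80 to 0.20), Rab12 (-0.62 to 0.18), Slain1 (-0.95 to 0.16) and Cdc34 (-0.66 to 0.14). None of these 17 was called in that model. Between 17.2 and 27.6 M (mega) estimated counts per library and 3 libraries per group limit the precision.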
